A study of Mus musculus with 27 samples.

Results

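The nuclear genes of the mitochondrial respiratory chain and of ATP synthase were examined in the livers of male C57B/6J mice that ate a high-iron, a standard-iron or a low-iron diet. They were taken by name and by level. Of 92 genes whose symbol starts with Nduf, Sdh, Uqcr, Atp5 or Cox4 to Cox8, 86 had a mean RNA level of at least 1 FPKM over the 3 diets, out of 9548 such genes among 22552 in the table. FPKM is a fragment count scaled to transcript length and library size. Of the 86 genes, 76 encode subunits: 36 of complex I, 4 of complex II, 8 of complex III, 13 of complex IV and 15 of complex V, the ATP synthase. The other 10 carry the same prefixes but are assembly factors or other proteins that are not counted as subunits. The limit did not pass close to any gene: Cox4nb (mean 2.91 FPKM) and Ndufa4l2 (3.35 FPKM) were the lowest inside it, and Cox6b2 (0.373 FPKM), Cox4i2 (0.203 FPKM) and Cox6a2 (0.0472 FPKM) the highest outside it. The other 3 genes outside it, Cox7b2, Cox8b and Cox8c, were listed at 0 in every diet.

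Per the labels, each diet was given to 3 mice. Carbonyl iron came to 0.9 mg per kg in the low-iron diet (LID), to 50 mg per kg in the standard-iron diet (SID) and to 8.3 g per kg in the high-iron diet (HID). HID and SID were started at 6 weeks of age and LID at 3 weeks, so low iron and an earlier start cannot be told apart. All groups shared sex, strain and tissue, and the labels do not state how long the diets lasted. The deposited RNA table holds a single level per gene and diet, which the authors made from all libraries of that diet, so each level below stands without an SD.

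The respiratory chain sits in the inner mitochondrial membrane. Complex I takes electrons from NADH and complex II from succinate, ubiquinone carries them to complex III, cytochrome c carries them on to complex IV, and complex IV reduces oxygen to water. Complexes I, III and IV pump protons, and ATP synthase lets the protons back to make ATP. The chain depends on iron: complexes I to III hold iron-sulphur clusters, and complexes II, III and IV hold haem. The catalytic core of complex IV, the proton-pumping core of complex I and some subunits of complexes III and V are encoded by the mitochondrial genome. Of those 13 genes, 0 were found by symbol in the deposited RNA table, so they are not analysed here.

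Summed FPKM over all genes were 420623 in LID, 467304 in SID and 485504 in HID, and read depth is unknown. Over the 9462 genes tested in all contrasts they were 384453 in LID, 451567 in SID and 429704 in HID. The scaling to the same total used below rests on the latter sums. The hepatocyte marker Apoa1 was among the highest genes, at 8602 FPKM in LID, 12243 in SID and 8346 in HID. Ahsg, Ttr and Tat were also highest in SID. Fgb was highest in HID instead, with 2453 FPKM in LID, 2703 in SID and 3306 in HID. Cps1 was highest in LID, with 325, 294 and 257 FPKM in the same order. Another marker, Alb, was listed at 0 in every diet with the status HIDATA. Serpina1c, with the same status, was listed at 0 in LID and SID and at 2707 FPKM in HID. Markers of other cells differed between diets: 6 neutrophil markers summed to 194 FPKM in LID, 6.51 in SID and 21.3 in HID, and 6 Kupffer cell markers to 118, 70.7 and 116 FPKM. Their part in the results below was not tested. In bulk liver, fewer cells of a type and less RNA per cell cannot be told apart.

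Subunit genes were among the well expressed genes of the liver, and their levels were ordered alike in the 3 diets. In SID the median subunit stood at 138 FPKM for complex I, 161 for complex II, 413 for complex III, 542 for complex IV and 354 for complex V. In LID the medians were 118, 142, 353, 413 and 297 FPKM, and in HID 125, 144, 412, 458 and 326 FPKM. Each of the 5 complexes had its highest median in SID, though in complex III that of HID was nearly equal. SID also held the highest level in 51.5% of the 9548 genes at or above the limit. Scaling to the same total over tested genes multiplies levels by 1.10 in LID, 0.934 in SID and 0.982 in HID. Under it, SID keeps the highest median only in complexes IV and V. Orders of levels below are those of the deposited values. FPKM are scaled to length, which puts genes on a common scale. How reads shared with processed pseudogenes of short subunit genes were assigned is not given, so level differences between complexes are descriptions only. The rank order of the 76 subunits had a Spearman rho of 0.983 between SID and LID, 0.987 between SID and HID, and 0.991 between LID and HID. These are descriptions over genes measured in the same libraries.

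**Figure D1:**
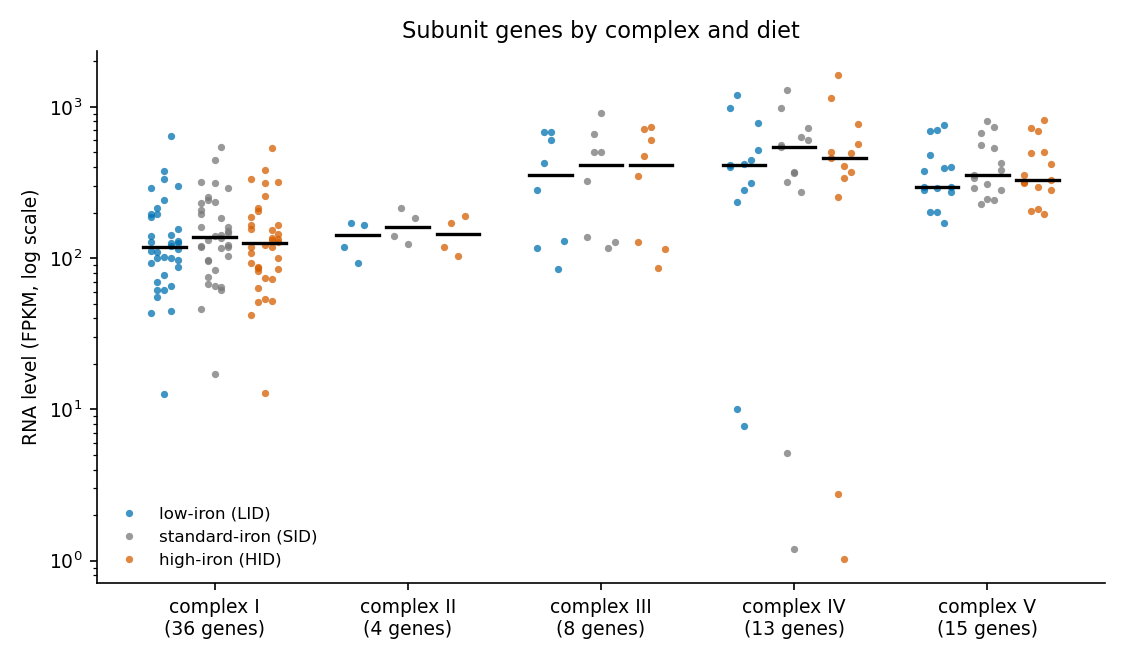
RNA level of each subunit gene in FPKM on a log axis, by complex, for LID (blue), SID (grey) and HID (orange). Each point is 1 gene and black bars are medians; the bars lie between 118 and 542 FPKM, and 2 genes of complex IV lie far below the rest.

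Within a complex, levels spread most in complex IV and least in complex II. From the lowest to the highest subunit, mean levels spanned 410-fold in complex IV, 40.2-fold in complex I, 8.12-fold in complex III, 3.81-fold in complex V and 1.73-fold in complex II. The wide span of complex IV came from a pair of low genes, Ndufa4l2 and Cox7a1, which are minor isoforms in liver. The highest subunit of all was Ndufa4, first assigned to complex I and now known as a subunit of complex IV, at 1194 FPKM in LID, 1301 in SID and 1625 in HID. In complex I the highest was Ndufa6, an accessory subunit, at 638, 541 and 535 FPKM in the same order. In complex III it was Uqcrq, a small subunit, at 684, 912 and 739 FPKM. In complex V it was Atp5l, subunit g of the membrane part, at 754, 739 and 819 FPKM.

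The diets were compared with the authors' own test, and a gene was called when the adjusted p in the authors' deposited table was below 0.05. All 86 genes had such a p in all 3 contrasts. For HID against SID 0 of 86 were called, beside 6.66% of all 9473 tested genes. For LID against SID 0 of 86 were called, beside 4.88% of 9482 tested genes. For HID against LID 1 of 86 was called, beside 3.94% of 9490 tested genes, and that gene, Cox7a1, was lower in HID, as were 1.84% of all tested genes. The subunits are high genes, and among genes with a mean of at least 10 FPKM the called shares were 7.79%, 8.32% and 5.09% in the same order of contrasts.

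At an unadjusted p below 0.05, 4 of 86 genes (4.65%) passed for HID against SID, where 18.1% of all tested genes did. Of these 3 were lower in HID, among them Ndufa11 and the complex I assembly factor Ndufaf2, and 1, Atp5s, was higher in HID. For LID against SID 13 of 86 (15.1%) passed, where 17.0% of all tested genes did. Of these, 12 were lower in LID (14.0% of the 86 genes), beside 13.0% of all tested genes. For HID against LID Cox7a1 alone passed (1.16% of the 86), where 10.2% of all tested genes did. The share for LID against SID thus lay near that of all genes, and the shares of both contrasts with HID lay below it.

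The sizes of change were small. Log2 changes are given on the log2(FPKM + 1) scale and, unless stated otherwise, relative to the median of all tested genes, which was -0.13 in LID and -0.07 in HID when each was set against SID, and 0.06 in HID when set against LID. Before that median was subtracted, the median size of change of the 76 subunits was 0.23 for LID against SID, 0.18 for HID against SID and 0.12 for HID against LID. Over all tested genes it was 0.20, 0.19 and 0.16. Among genes with a mean of at least 40 FPKM, the smallest change that was called was 0.63, 0.63 and 0.79. The largest among the 73 subunits at that level was 0.51, 0.57 and 0.44, so each was smaller than any change called at these levels.

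**Figure D2:**
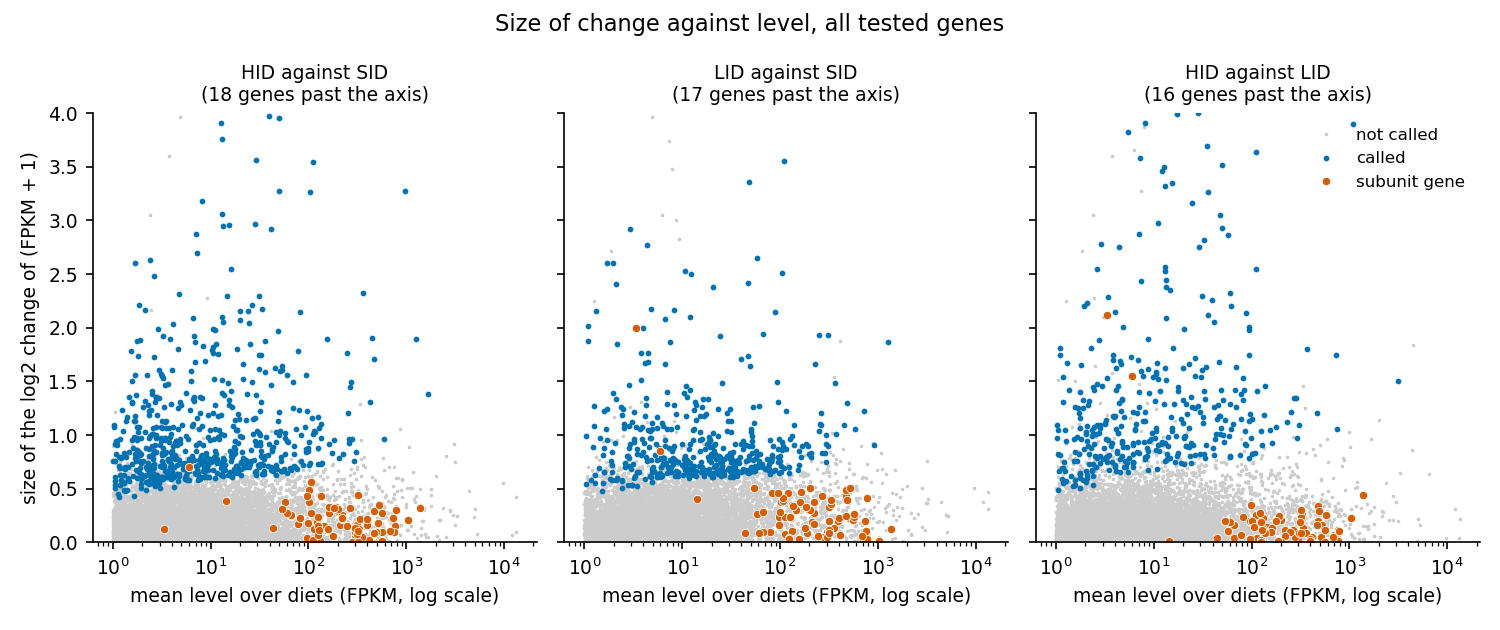
Size of the log2 change of (FPKM + 1), not centred, against the mean level over diets in FPKM on a log axis, for all tested genes not called (grey), called (blue) and subunit genes (orange, called or not). Most subunits lie at the right and low in each panel, below the smallest called change of genes at 40 FPKM or more (0.63, 0.63 and 0.79), and the low gene Cox7a1 stands above the rest in all 3 panels, with Ndufa4l2 in the 2 that involve LID.

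Compared with SID, the median subunit of complex I was -0.12 in HID and -0.10 in LID, and that of complex II was -0.19 and -0.15. These 4 medians were negative under each of the other scalings, filters and pseudocounts tried, but those of LID shrank: scaled to the same total they were -0.00 for complex I and -0.05 for complex II, and among genes of at least 10 FPKM -0.01 and -0.06. For HID against SID the medians of complexes III, IV and V were all -0.03, and each was positive when only genes of at least 10 FPKM were tested. For LID against SID complex III stood at -0.09 and complex V at -0.06, both positive under that filter and when values were scaled to the same total. Complex IV stood at 0.01 and was negative without centring, with a pseudocount of 10 and with all genes of its prefix. For HID against LID the medians ran from -0.03 in complex I to 0.10 in complex IV, which was positive in each setting tried, and the other 4 turned sign in at least 1 setting. The 2 contrasts with SID share the SID values, so their likeness is not independent.

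Over all 76 subunits, the change before centring was below 0 in 69.7% for HID against SID, beside 60.4% of all tested genes. For LID against SID it was below 0 in 73.7%, beside 70.2%, and for HID against LID in 30.3%, beside 38.7%. SID held the highest of the 3 levels in 48 of 76 subunits (63.2%), beside 51.5% of the 9548 genes at or above the limit. LID held the lowest level in 42 subunits (55.3%), beside 47.9% of those genes. Across the 76 subunits the signed change for HID against SID tended to be less negative or more positive at higher mean levels. The Spearman rho was 0.45, where over all tested genes it was -0.13. For LID against SID it was 0.14 beside -0.29, and for HID against LID 0.26 beside 0.15. The points share the same libraries, so this is a description only.

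**Figure D3:**
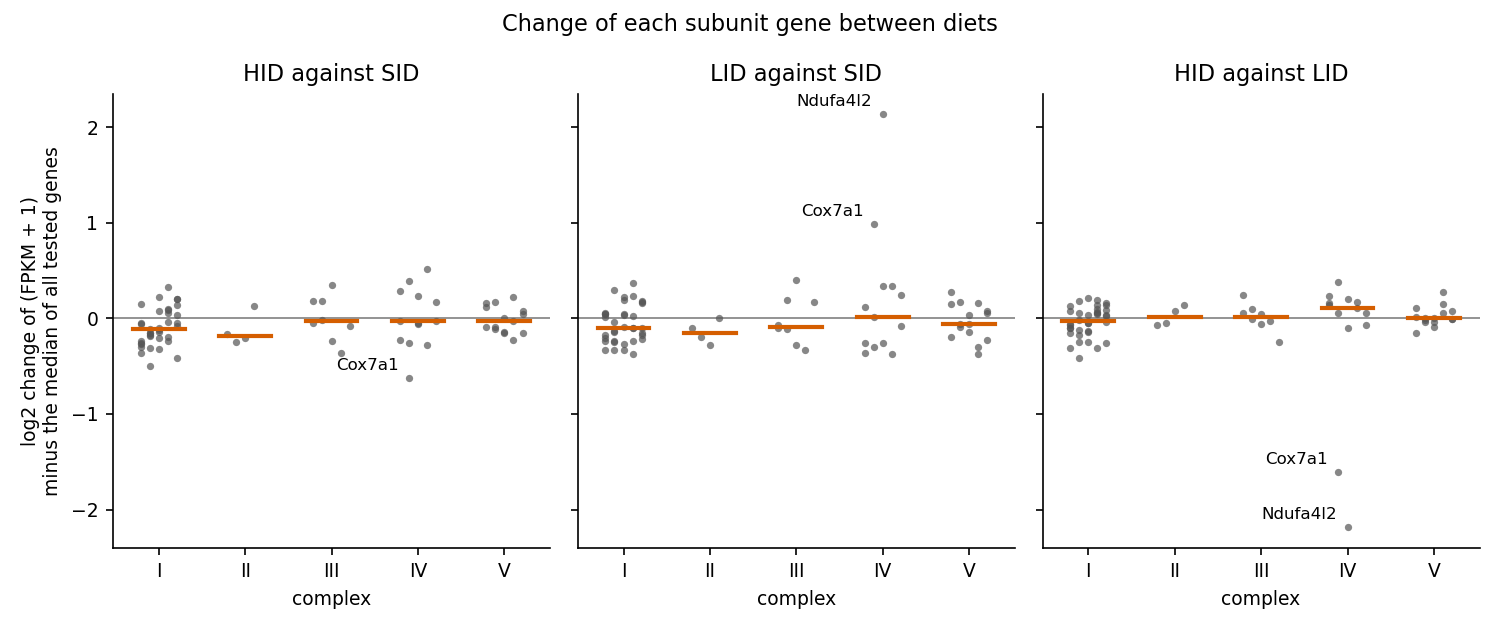
Log2 change of each subunit gene relative to the median of all tested genes (grey line at 0), by complex, in the 3 contrasts. Points are genes and orange bars are medians per complex, which lie between -0.19 and 0.10; Cox7a1 lies apart in all 3 panels and Ndufa4l2 in the 2 that involve LID.

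Complex I has a peripheral arm that holds the NADH site and the iron-sulphur clusters and a membrane arm that pumps protons. Its 7 nuclear core subunits had median changes of -0.15 for HID against SID and -0.25 for LID against SID, with 6 and 4 of the 7 below the median of all tested genes, and none was called. Ndufv1, which binds NADH, a flavin and an iron-sulphur cluster, had 45.0 FPKM in LID, 64.5 in SID and 51.8 in HID. It had the smallest p of the subunits for LID against SID in the authors' deposited table, 0.0123, with an adjusted p of 0.150. Ndufs3, a core subunit without a cluster, had 101 FPKM in LID, 140 in SID and 123 in HID. In both genes SID held the highest level and LID the lowest.

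The core subunits of complex I ran from -0.50 to 0.14 for HID against SID and from -0.38 to 0.17 for LID against SID. The accessory subunits, which assemble around the core, likewise spread on both sides of 0, with a median change of -0.10 in both contrasts. For HID against SID they ran from -0.41 for Ndufs5 (97.6 FPKM in LID, 119 in SID, 84.9 in HID) to 0.33 for Ndufs4 (65.5, 61.1 and 73.3 FPKM). Ndufs4 is known from mice and patients as a subunit whose loss leaves complex I unstable. Ndufa5 lay next to it at 0.22, with 243 FPKM in LID, 233 in SID and 259 in HID. For LID against SID they ran from -0.33 for Ndufb7 (141, 195 and 155 FPKM), a membrane arm subunit, to 0.37 for Ndufa6. Ndufb3, also of the membrane arm, was next at 0.30 with 110, 97.7 and 86.1 FPKM, a level that was highest in LID and lowest in HID. It had the lowest value of complex I for HID against LID, -0.41, and Ndufa6 followed at -0.31. At the upper end of that contrast stood Ndufs3 at 0.21 and Ndufc1 at 0.19, the latter with 99.6, 117 and 119 FPKM. None of these genes was called.

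Complex II, succinate dehydrogenase, is shared with the tricarboxylic acid cycle and is the only complex encoded by nuclear genes alone. Sdha, the flavin-bearing catalytic subunit, had 118 FPKM in LID, 140 in SID and 118 in HID. Sdhb, which holds the iron-sulphur clusters, had 169 FPKM in LID, 213 in SID and 171 in HID. Sdhc, a membrane anchor that helps bind haem, had 93.1, 125 and 103 FPKM. These 3 genes were highest in SID. Sdhd, the other anchor, had 166 FPKM in LID, 183 in SID and 191 in HID, and was highest in HID. The smallest p was that of Sdhc for LID against SID in the authors' deposited table, 0.0490, with an adjusted p of 0.343. Sdhaf1, an assembly factor that helps deliver clusters to Sdhb, had 11.7 FPKM in LID, 18.5 in SID and 15.3 in HID. Its p for LID against SID, 0.00707 in the authors' deposited table, was the smallest of the 10 genes that are no subunits, and its adjusted p was 0.104.

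In complex III the subunits lay on both sides of 0, and 0 of 8 were called. Uqcrc1, a core protein, had 84.5 FPKM in LID, 117 in SID and 86.2 in HID, and its change was -0.33 for LID and -0.36 for HID against SID. Uqcrc2, its partner, had 130 FPKM in LID, 127 in SID and 114 in HID. Uqcrb, a small subunit near the ubiquinone site, was the opposite of Uqcrc1, with 603 FPKM in LID, 501 in SID and 605 in HID. Uqcrq was highest in SID, and the hinge protein Uqcrh was lowest there, with 687, 661 and 711 FPKM. For HID against LID the upper end of the complex was Uqcr10, at 0.24 with 282, 325 and 349 FPKM, followed by Uqcr11, at 0.10 with 424, 504 and 475 FPKM. Cyc1, the haem-bearing cytochrome c1, is a complex III subunit that the name rule leaves out. It had 131 FPKM in LID, 171 in SID and 121 in HID, and the authors' deposited table gave a p of 0.0274 for HID against SID, adjusted 0.249.

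Iron-binding subunits were set apart because the diets differ in iron. The 9 of them in the list were Ndufs1, Ndufv1, Ndufv2, Ndufs7, Ndufs8, Sdhb, Sdhc, Sdhd and the Rieske protein Uqcrfs1. Their median change was -0.15 for HID against SID and -0.11 for LID against SID, beside -0.10 and -0.10 for the other 39 subunits of complexes I to III. For HID against LID it was 0.06 beside -0.02. None of the 9 was called in any contrast. Ndufs7 had 69.3 FPKM in LID, 95.9 in SID and 81.9 in HID, the widest relative gap after that of Ndufv1. Ndufs1, the largest subunit of complex I, which carries several clusters, differed little, at 43.3, 46.2 and 42.1 FPKM. Ndufv2 had 125, 122 and 128 FPKM, Ndufs8 61.5, 65.4 and 54.0 FPKM, and Uqcrfs1 117, 138 and 127 FPKM. Among the 9, SID held the highest deposited level in all but Ndufv2 and Sdhd, which were highest in HID. SID was also highest in 51.5% of the 9548 genes at or above the limit.

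Complex IV held the called gene. Cox7a1, the isoform of subunit VIIa known from heart, skeletal muscle and brown fat, had 10.02 FPKM in LID, 5.11 in SID and 2.76 in HID. The levels were ordered against dietary iron, and the HID level was 0.276 times the LID level. For HID against LID its relative log2 change was -1.61, and in the authors' deposited table p was 0.000546 and the adjusted p 0.0161. The contrasts with SID were not called: for LID against SID the change was 0.98 with a p of 0.0359 and an adjusted p of 0.289, and for HID against SID it was -0.63 with a p of 0.0920 and an adjusted p of 0.476, all in the authors' deposited table. Its mean lay below 10 FPKM, so with that limit the gene drops out and 0 members remain called.

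Cox7a2, the isoform of the same subunit found in most tissues, had 418 FPKM in LID, 363 in SID and 408 in HID, and its lowest level was that of SID. Cox7a1 thus made up 2.34% of the summed FPKM of the pair in LID, 1.39% in SID and 0.674% in HID. The 4 markers of pancreas had the same order, each highest in LID and lowest in HID, but each was lower than Cox7a1. In LID they ran from 1.36 FPKM for Cpa1 to 4.07 for Cela2a. Their sum over genes was 10.3 FPKM in LID, 5.33 in SID and 3.29 in HID. One of these, Cpa1, a digestive carboxypeptidase, was called for HID against LID, with 1.36 FPKM in LID and 0.307 in HID and an adjusted p in the authors' deposited table of 0.0339. The order was not particular to pancreas. The endothelial markers Stab2 and Kdr and the stellate marker Reln had it as well, and the other endothelial and stellate markers did not. Stab2 had 3.45 FPKM in LID, 2.12 in SID and 1.69 in HID. It was called for HID against LID, with an adjusted p in the authors' deposited table of 0.00180. Markers of muscle and fat, the tissues in which Cox7a1 is best known, were far lower. The 6 striated muscle markers summed to 0.929 FPKM in LID, 0.874 in SID and 0.571 in HID, nearly all of it Mylpf (0.901, 0.863 and 0.562 FPKM), and Mb and Tnnt3 among them were listed at 0 in every diet. The 4 adipose markers summed to 0.0405, 0.0318 and 0.0102 FPKM, with Cidea highest in SID, and Ucp1 and Plin1 were listed at 0 in every diet. The part of these markers in the Cox7a1 difference was not tested.

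The bases just before the start of both isoform genes are shown because the called difference separates this pair. They come from RefSeq on build GRCm38.p6, while the deposited levels were made on mm9. Each line gives the 100 bases before the start, 5′ to 3′ on the strand of the gene, and capitals mark a GGGCGG box, the SP1 motif, on either strand. Cox7a1 lies at chr7:30184071-30184170 on the plus strand and Cox7a2 at chr9:79759854-79759953 on the minus strand.
Cox7a1: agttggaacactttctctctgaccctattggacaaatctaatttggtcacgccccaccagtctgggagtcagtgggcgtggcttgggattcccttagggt
Cox7a2: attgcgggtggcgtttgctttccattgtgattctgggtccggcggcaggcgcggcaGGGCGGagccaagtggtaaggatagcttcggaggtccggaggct
The Cox7a1 window held none of the 4 motifs searched, and the Cox7a2 window held the SP1 motif.

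Ndufa4l2, a paralog of Ndufa4, had the largest change of any subunit, and it was not called. It had 7.82 FPKM in LID, 1.20 in SID and 1.03 in HID, so LID stood apart from both other diets. Its relative change was 2.13 in LID against SID, and in HID against LID it was -2.18. In the authors' deposited table p was 0.0995 and 0.209 and the adjusted p 0.495 and 0.678. It made up 0.651% of the summed FPKM of the pair with Ndufa4 in LID, 0.0923% in SID and 0.0631% in HID. Ndufa4 itself was highest in HID, at 0.39 against SID and 0.38 against LID.

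The ubiquitous or liver-type partner made up nearly all of the RNA of each other isoform pair. Cox4i2, Cox6a2 and Cox6b2 were at or below 0.107% of their pairs in every diet, and Cox8b was listed at 0 in all 3. Among the major isoforms, Cox4i1 had 399 FPKM in LID, 561 in SID and 458 in HID, and Cox6a1 had 442, 630 and 495 FPKM. Cox8a had 413, 542 and 506 FPKM, and Cox6b1 520, 603 and 564 FPKM. All 4 deposited levels were lowest in LID and highest in SID. Scaled to the same total over tested genes, Cox6b1 is highest in LID instead, and the other 3 keep the order. Cox7b, a small structural subunit, was lowest in SID instead, with 316, 274 and 372 FPKM, and its change of 0.51 was the highest of all subunits for HID against SID. Its p in the authors' deposited table was 0.0891 and its adjusted p 0.469. For LID against SID the smallest p among the major isoforms was that of Cox6a1, 0.0243 (adjusted 0.232 in the authors' deposited table).

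**Figure D4:**
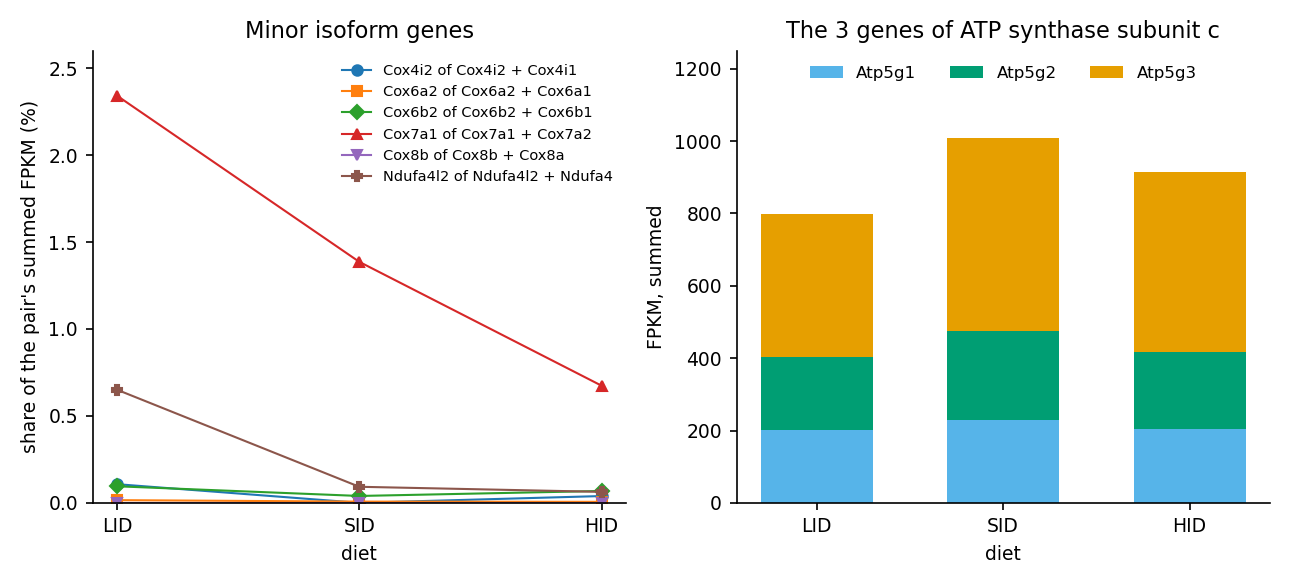
Left, share of the minor isoform gene in the summed FPKM of its pair (%), by diet, with lines joining the values of a pair; right, FPKM of the 3 genes of ATP synthase subunit c, stacked. The Cox7a1 share ran from 2.34% in LID to 0.674% in HID, and Atp5g3 made up 49.5% to 54.6% of the subunit c sum.

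ATP synthase couples a rotor in the membrane to the catalytic head of alpha and beta subunits. Subunit c, which forms the rotor ring, is encoded by 3 genes that give the same mature protein. Atp5g3 was the highest of them, with 396 FPKM in LID, 535 in SID and 500 in HID, or 49.5%, 53.0% and 54.6% of their sum. Atp5g1 had 200, 229 and 204 FPKM and Atp5g2 203, 246 and 211.9 FPKM, so all 3 deposited levels were highest in SID and lowest in LID. Scaled to the same total over tested genes, Atp5g3 keeps that order and Atp5g1 and Atp5g2 do not. Atp5d, the delta subunit of the central stalk, also followed that order, with 170, 241 and 196 FPKM, and had the smallest p of the complex for LID against SID, 0.0207 (adjusted 0.211 in the authors' deposited table). Atp5j2, subunit f, had its lowest level in SID instead, at 694, 676 and 727 FPKM. So did Atp5j, coupling factor 6 of the peripheral stalk, at 376, 341 and 353 FPKM. Atp5k, subunit e, was highest in SID, at 706, 810 and 693 FPKM.

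Other genes of ATP synthase and electron transfer were counted from a list of 18 symbols, of which 17 were found in the deposited RNA values. For HID against SID 1 of the 17, Atpif1, was called (6.66% of all tested genes were), and 0 in the other contrasts. Atpif1, the inhibitor that blocks ATP hydrolysis by ATP synthase when the proton gradient fails, had 64.9 FPKM in LID, 51.6 in SID and 82.9 in HID. It rose by 0.74 in HID against SID, and the authors' deposited table gave an adjusted p of 0.0372. Usmg5, a small ATP synthase subunit, had its highest level in HID as well, with 685, 637 and 850 FPKM, and was not called. For the 17 genes the median change against SID was 0.06 in LID and -0.02 in HID, and that of HID against LID was -0.09.

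Among the 10 genes of the prefixes that are no subunits, none was called. Atp5s, known as coupling factor B, had 3.41 FPKM in LID, 2.81 in SID and 4.70 in HID, with a p of 0.00853 and an adjusted p of 0.118 for HID against SID in the authors' deposited table. Ndufaf2, an assembly factor of complex I, had 19.1, 21.6 and 15.4 FPKM. Cox7a2l, which links complexes III and IV into supercomplexes, had 109, 132 and 140 FPKM. Assembly factors outside the prefixes showed 0 called of 12 for complex IV and 0 of 4 for complex III. For complex IV the smallest p in the authors' deposited table were those of Cox16 for HID against SID, 0.0379, and of Cox19 for LID against SID, 0.0622. For complex III they were those of Bcs1l, 0.251, and Uqcc, 0.383.

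Genes that act beside the chain were counted next, in lists so short that the shares of all tested genes called, 6.66%, 4.88% and 3.94%, come to less than 1 gene per list. Of 13 regulators of mitochondrial gene expression, 12 were at or above 1 FPKM, and 0 of these were called in any contrast, with medians of 0.04 for LID and 0.08 for HID against SID, and of 0.10 for HID against LID. Sirt3, a mitochondrial deacetylase, had 29.7 FPKM in LID, 42.2 in SID and 33.2 in HID, with a p of 0.0257 for LID against SID in the authors' deposited table. Esrra, a nuclear receptor that drives respiratory genes, had 7.86, 12.1 and 10.7 FPKM, with a p of 0.0324 in the same contrast of the authors' deposited table. Ppargc1b, a coactivator below the limit at 0.311, 0.350 and 0.703 FPKM, had a p of 0.0110 for HID against SID and 0.0215 for HID against LID, adjusted 0.139 and 0.217, in the authors' deposited table. Of 13 tricarboxylic acid cycle genes 0 were called. Fh1, fumarase, which acts after complex II, had 122 FPKM in LID, 123 in SID and 79.5 in HID, and its p for HID against SID in the authors' deposited table was 0.00522, adjusted 0.0855. Mdh2, malate dehydrogenase, had 104, 136 and 110 FPKM and a p of 0.0814 for LID against SID in the authors' deposited table.

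Among 76 mitochondrial ribosomal protein genes, 2 were called for HID against SID, Mrpl38 and Mrpl4, both lower in HID, beside 6.66% of all tested genes. For LID against SID 1 was called, Mrps7, lower in LID, beside 4.88%. For HID against LID 0 were called, beside 3.94%. The called shares of the list thus lay below those of all tested genes. Mrpl38 had 25.1 FPKM in LID, 38.6 in SID and 24.1 in HID, and Mrpl4 14.6 in HID against 23.4 in SID. Mrps7 had 26.3 FPKM in LID and 41.1 in SID. The medians of that list were -0.04 for HID against SID and -0.09 for LID against SID, beside -0.07 and -0.09 for the 76 subunits. The 83 cytoplasmic ribosomal protein genes stood at 0.21 and 0.07. Of the 83 genes, 1 was called in each contrast with SID, also below the shares of all tested genes, and 0 for HID against LID. That gene, Rpl22l1, had 110 FPKM in LID, 67.5 in SID and 152 in HID.

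Promoters were searched for motifs of factors known to act on respiratory genes. RefSeq windows from 250 bases before to 50 after the start were at hand for 64 of the 76 subunits and for 7640 genes of the table at or above 1 FPKM, and both strands were read. A gene counted when any of its windows held the motif. More than 1 window was at hand for 5 subunits. How many of the other genes had several was not counted, so the shares may not be on equal terms. The NRF1 motif GCGCATGCG was in 8 of 64 subunits (12.5%), beside 4.41% of those genes and 1.95% of 27025 genes with a window. The YY1 motif AAGATGGCG was in 7 (10.9%), beside 4.15%. The ETS motif CCGGAAG was in 16 (25.0%), beside 22.0%, and the SP1 motif GGGCGG in 25 (39.1%), beside 68.4%. The NRF1 motif nearly equals its own reverse complement, so a site can be met on both strands. The subunits with it were Ndufa11, Ndufa8, Uqcr11, Uqcrc1, Cox6a1, Atp5g2, Atp5k and Atp5l. A match is a description of letters and not a site.

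Ndufa11, Cox6a1 and Uqcrc1 were also among the 12 genes lower in LID than in SID at an unadjusted p below 0.05 in the authors' deposited table. The other subunits with the NRF1 motif, Ndufa8, Uqcr11, Atp5g2, Atp5k and Atp5l, were not. At that p 11 of 76 subunits (14.5%) and 13.0% of all tested genes were lower in LID. None of the subunits with the motif was called, and a link between the motif and the diet was not tested. Ndufa11 and Cox6a1 are shown as an example. Ndufa11, a membrane arm subunit and the lowest gene of complex I, had 12.7 FPKM in LID, 17.1 in SID and 12.8 in HID, and Cox6a1 is given above. Each line holds the 100 bases before the start on GRCm38.p6, at chr17:56717662-56717761 on the plus strand for Ndufa11 and chr5:115348959-115349058 on the minus strand for Cox6a1. Capitals mark the NRF1 motif read on both strands in Ndufa11, and the SP1 and ETS motifs, both on the opposite strand, in Cox6a1.
Ndufa11: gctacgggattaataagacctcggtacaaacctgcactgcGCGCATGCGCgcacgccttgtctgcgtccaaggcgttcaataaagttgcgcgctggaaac
Cox6a1: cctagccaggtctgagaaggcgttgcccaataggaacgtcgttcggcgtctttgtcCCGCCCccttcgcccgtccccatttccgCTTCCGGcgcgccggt
The NRF1 motif of Cox6a1 lies in its promoter outside the bases shown.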

How the data were processed

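Liver RNA was profiled in 9 libraries, 3 per diet per the labels. The submitters' processing notes name TopHat, Cufflinks 2.2.1 and build mm9. The deposited table holds FPKM, 1 value per gene and diet made by the authors. No header states the unit, which was inferred from Cufflinks and the range of the values. Per the file headers the columns are GFE, NORM and LFE, of which GFE was taken as HID by elimination. For each contrast the authors deposited a p-value and its adjusted p-value. Not given in the sources used here are the test behind them and how reads shared with processed pseudogenes, which many short subunit genes have, were assigned. Read depth is unknown, and there are no library values, so the planned limma fit could not be run.

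A gene counted as tested at a mean of 1 FPKM or more with a deposited adjusted p below 1, and as called below 0.05. Log2 changes used a pseudocount of 1, which understates changes of low genes. Members and lists were chosen with earlier results of these data known. The rule named called genes, the 2 largest changes in each direction per complex and contrast, the highest subunit per complex, iron-binding subunits, isoform pairs, genes next to the level limit, and from other lists the called genes or the 2 with the smallest p. Ndufa11, Ndufaf2, Atp5s, Sdhaf1, Cyc1, Usmg5, Ppargc1b and Cpa1 were named after their values were seen. So were the markers Stab2, Kdr, Reln, Ahsg, Ttr, Tat, Fgb and Cps1. A gene that the rule named is not reported here. Sequences were matched by symbol to RefSeq promoters of GRCm38.p6. The methylation table, 48 loci in genes that are no members, was not used. The script was tested on simulated data. Python 3.11.15, pandas 2.3.3, numpy 2.4.6, scipy 1.17.1 and matplotlib 3.10.9 were used.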

Additional observations from a re-analysis of the deposited data

How the results depend on the processing

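At an unadjusted p below 0.05, 1 member was higher and 3 were lower for HID against SID, and 1 was higher and 12 were lower for LID against SID, in place of 0 under the adjusted p. With a mean of at least 10 FPKM 0 members were called lower for HID against LID, because Cox7a1 lies below that limit. Cox7a1 was called with an adjusted p below 0.1, with adjustment within the contrast, with no filter on low values and with a fold limit of 1.5, and no other member was called in those 4 settings. Without centring the complex II median for LID against SID was -0.28. Of 15 medians per complex and contrast, the sign turned in 7 with a mean of at least 10 FPKM, in 4 when diets were scaled to the same total, in 3 without centring, in 3 with a pseudocount of 10, in 2 with all genes of a prefix, in 1 with a pseudocount of 0.1 and in 1 without the filter. The largest shift was 0.13. No paired analysis was possible because the table holds 1 value per diet and no library values, and for the same reason leaving out a replicate and edgeR were not run. The labels give 3 mice per diet, and which spread the deposited p-values rest on is not stated in the sources used here.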
